A study of Homo sapiens with 9 samples.

Results

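The genes described are the 10 members of the MYC, MAX and MXD network of transcription factors: MYC, MYCL, MYCN, MAX, MXD1, MXI1, MXD3, MXD4, MNT and MGA. They were taken by gene name from a count table of 67140 genes, in which each of the 10 names had 1 row. The RNA was that of the human small cell lung cancer line DMS273, in 9 libraries of 3 genotypes with 3 libraries each. The ATG7/SQSTM1 KO cells had both genes knocked out with CRISPRv2 guides, the ATG7 KO cells lacked ATG7 alone, and the control cells carried the guide abbreviated sgScr and are labelled WT. No drug or other treatment is given for any group. ATG7 encodes the E1-like enzyme of the autophagy conjugation systems, and SQSTM1 encodes the cargo receptor p62. The labels do not say whether a knockout line was a clone or a pool, nor whether the libraries of a group came from separate cultures, so p-values cover the spread among the libraries sequenced, some of which may be technical.

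MYC, MYCL and MYCN are basic helix-loop-helix leucine zipper proteins that bind DNA only as a dimer with MAX, preferably at the E-box CACGTG. The MXD proteins (with MXI1 among them), MNT and MGA also pair with MAX at E-boxes. The MXD proteins and MNT recruit SIN3 and histone deacetylases, while MGA is the scaffold of the polycomb complex PRC1.6. Small cell lung cancers often carry an amplified MYC, MYCL or MYCN gene, and some lose MAX or MGA.

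Library totals ran from 28675576 to 34222098 counts, and mitochondrially encoded genes took 3.87% to 6.04% of them. Levels are CPM, counts scaled to a common library size, here with factors from the trimmed mean of M-values (TMM), and changes are log2 differences with their standard error (SE) from edgeR's quasi-likelihood test. A gene counts as changed where its edgeR p, adjusted over all 18847 tested genes, was under 0.05. ATG7 stood at 10.6 ± 0.55 CPM in ATG7/SQSTM1 KO, 11.7 ± 1.52 CPM in ATG7 KO and 27.1 ± 0.901 CPM in control, and SQSTM1 at 51.9 ± 3.29 CPM in ATG7/SQSTM1 KO, 390.7 ± 4.47 CPM in ATG7 KO and 376 ± 3.53 CPM in control (SD, n = 3 each), so no library went against its label. Of the neuroendocrine markers, NEUROD1 stood at 237.5 ± 6.81 CPM in ATG7/SQSTM1 KO, 73.3 ± 0.93 CPM in ATG7 KO and 194 ± 3.89 CPM in control, and NCAM1 at 21.7 ± 0.245 CPM in ATG7/SQSTM1 KO, 6.64 ± 0.791 CPM in ATG7 KO and 39 ± 1.74 CPM in control.

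The promoters of 3 members that changed in at least 1 comparison are printed because they differ in the sequence that the network itself binds. The stretches come from the RefSeq promoter table of GRCh38.p14, which gives 250 bases before to 50 bases after each start, and they were shortened where an annotated exon begins. Which promoters to print was chosen after the values were seen. E-boxes CACGTG are in capitals, and this motif reads the same on both strands. The MNT stretch is chr17:2401119-2401310 on the minus strand, the MXD4 stretch chr4:2262295-2262359 on the minus strand, and the MXI1 stretch chr10:110207355-110207604 on the plus strand.
MNT: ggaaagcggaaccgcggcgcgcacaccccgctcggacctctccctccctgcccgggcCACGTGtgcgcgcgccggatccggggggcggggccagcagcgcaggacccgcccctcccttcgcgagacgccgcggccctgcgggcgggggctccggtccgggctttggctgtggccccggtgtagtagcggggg
MXD4: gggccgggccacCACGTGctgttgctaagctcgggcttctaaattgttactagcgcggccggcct
MXI1: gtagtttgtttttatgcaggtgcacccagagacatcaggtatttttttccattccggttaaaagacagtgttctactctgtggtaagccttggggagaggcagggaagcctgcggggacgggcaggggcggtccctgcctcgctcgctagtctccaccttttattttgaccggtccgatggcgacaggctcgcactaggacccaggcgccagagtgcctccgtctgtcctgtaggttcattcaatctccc
The table held 14 windows for 9 of the members and none for MYC. CACGTG lay in 2 of them, 193 bases before the RefSeq start of MNT and 238 bases before that of MXD4, while 7.26% of all 35116 windows held it. In the gene annotation used for coordinates both genes begin farther upstream, MNT at 2401118 and MXD4 at 2262294. The related letters CACGCG, read on either strand, lay in windows of 3 members, MXI1, MXD3 and MGA, and in 11.4% of all windows. MXI1 has 3 windows, of which the stretch printed is from the first, and the match lies in the third. No match says only that these letters are not in the window.

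Levels of different genes were compared per kilobase of exon, over all annotated exons of a gene and not its expressed transcripts. On that scale MYC led the network in every library. MYC stood at 541 ± 10.5 CPM per kilobase in ATG7/SQSTM1 KO, 386 ± 3.51 in ATG7 KO and 389 ± 2.64 in control (SD, n = 3 each), which placed it at rank 57 in ATG7/SQSTM1 KO, 78 in ATG7 KO and 85 in control among 18612 tested genes of known length. MYC alone made up 84.7% ± 0.286 of the summed level of the 10 members in ATG7/SQSTM1 KO, 84.9% ± 0.383 in ATG7 KO and 78.4% ± 0.147 in control. The shared partner MAX stood at 19.6 ± 0.404 in ATG7/SQSTM1 KO, 19.9 ± 0.475 in ATG7 KO and 19.2 ± 0.255 in control. The ratio of MYC to MAX transcripts was 27.7 ± 1.11 in ATG7/SQSTM1 KO, 19.4 ± 0.489 in ATG7 KO and 20.3 ± 0.299 in control. In ATG7/SQSTM1 KO and control the order below MYC was MYCL, MXI1, MAX, MXD4, MGA, MNT, MXD3, MXD1 and MYCN. In ATG7 KO, MAX came second, ahead of MYCL at 14.7 and MXI1 at 11.9. Neighbours in these orders did not overlap between their libraries, except MNT and MXD3 in control. The order below MYC depends on the lengths used. Without length scaling, MXD4 stood at 72.2 CPM and MXI1 at 54.6 CPM in ATG7 KO.

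**Figure D1:**
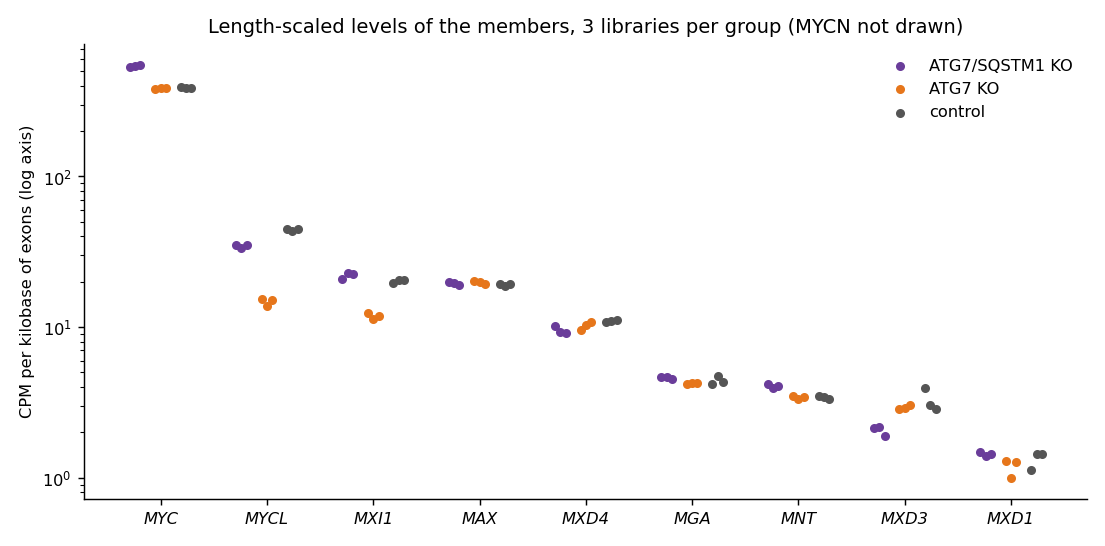
Levels of the members in each group as TMM-scaled CPM per kilobase of exon on a log axis, a point per library, without MYCN. MYC lies above every other member in all 9 libraries, and MYCL falls below MAX in ATG7 KO.

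MYC, the founding oncogene of the network, was higher in ATG7/SQSTM1 KO than in either other genotype. MYC had 1596, 1619 and 1658 CPM in ATG7/SQSTM1 KO, 1149, 1169 and 1154 CPM in ATG7 KO and 1174, 1169 and 1158 CPM in control. All 3 ATG7/SQSTM1 KO libraries lay above the other 6, and the ATG7 KO and control libraries overlapped. The log2 change was 0.48 (SE 0.0215, 1.39-fold, edgeR adjusted p = 2.45e-13) against control and 0.49 (1.40-fold, edgeR adjusted p = 3.01e-14) against ATG7 KO. Between ATG7 KO and control it was -0.01 with a 95% interval of -0.06 to 0.03 (edgeR adjusted p = 0.661). MYC (ENSG00000136997) lies on GRCh38 chromosome 8, 127735434 to 127741434, plus strand, and none of its exon bases are shared with another annotated gene. Since this is bulk RNA, fewer cells of a type and less RNA per cell cannot be told apart here or below.

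MYCL, the paralogue first found amplified in small cell lung cancer, was lower in both knockouts than in control, and much lower in ATG7 KO. MYCL had 176.5, 170.1 and 177.2 CPM in ATG7/SQSTM1 KO, 77.4, 69.6 and 76.4 CPM in ATG7 KO and 228, 219.8 and 226 CPM in control. No 2 genotypes overlapped, with control highest and ATG7 KO lowest. Against control, MYCL fell 3.02-fold in ATG7 KO (log2 change -1.59, SE 0.0365, edgeR adjusted p = 8.09e-19) and 1.29-fold in ATG7/SQSTM1 KO (log2 change -0.36, SE 0.0349, edgeR adjusted p = 3.69e-08). It was 2.35-fold higher in ATG7/SQSTM1 KO than in ATG7 KO (log2 change 1.23, edgeR adjusted p = 5.12e-17). MYCL (ENSG00000116990) lies on chromosome 1, 39895426 to 39902256, minus strand. Its share of the summed MYC family level per kilobase was 5.99% ± 0.148 in ATG7/SQSTM1 KO, 3.67% ± 0.233 in ATG7 KO and 10.2% ± 0.192 in control.

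MYCN, the neural paralogue, was near the limit of detection. It had 0, 0 and 3 counts in ATG7/SQSTM1 KO, 0, 3 and 8 counts in ATG7 KO and 0, 2 and 0 counts in control. With counts this low it failed the filter and was not tested, so 9 of the 10 members were. A count of 0 allows up to 3 counts, which covers counting error only. Scaled by library totals alone, without the TMM factors, that is 0.0877 to 0.105 CPM in these libraries.

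**Figure D2:**
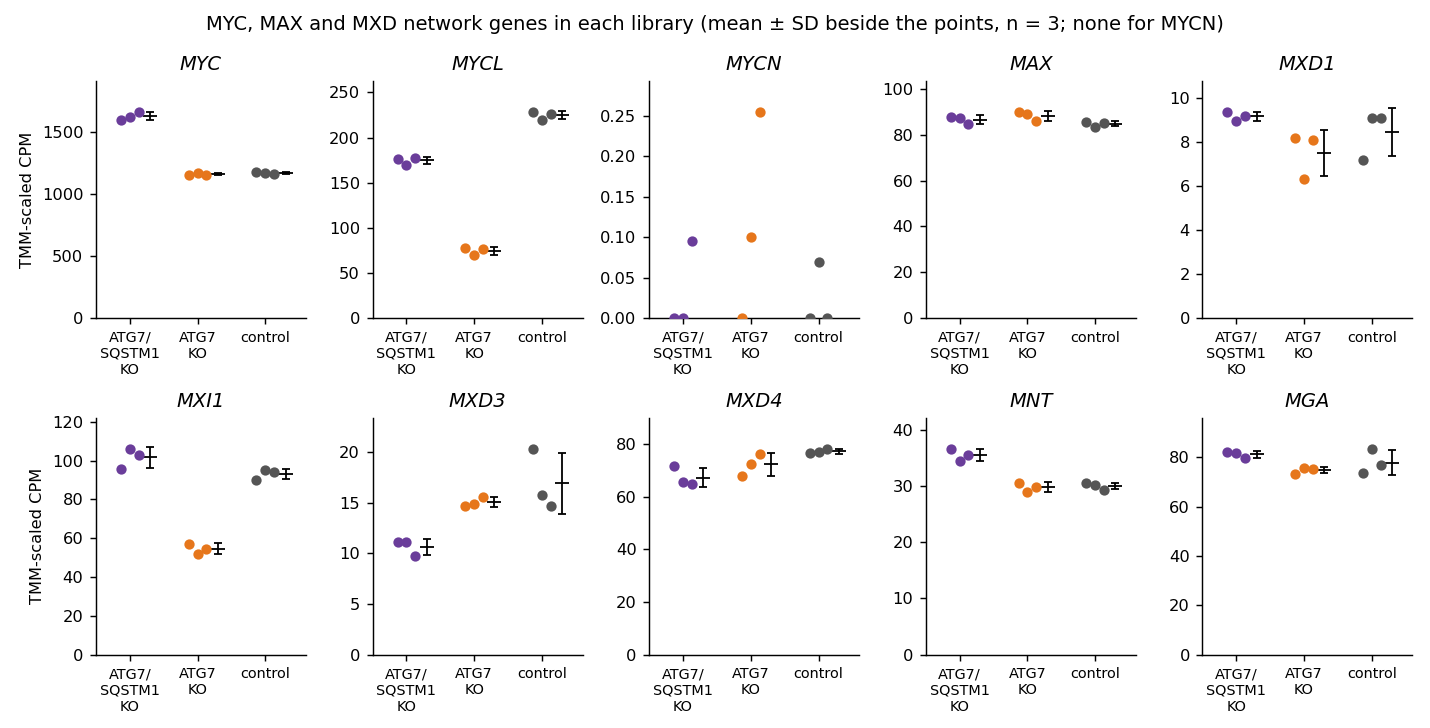
TMM-scaled CPM of each member in each library, with the group mean ± SD beside the points (n = 3, none for MYCN), ATG7/SQSTM1 KO at the left, then ATG7 KO and control. MYC is high in ATG7/SQSTM1 KO, while MYCL and MXI1 are low in ATG7 KO, with no overlap between the ATG7 KO libraries and the others for these 2 genes.

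MAX, the obligate partner, did not pass the threshold in any comparison. MAX had 87.9, 87.6 and 84.6 CPM in ATG7/SQSTM1 KO, 90.0, 89.0 and 86.0 CPM in ATG7 KO and 85.8, 83.6 and 85.2 CPM in control. The ATG7 KO libraries lay just above the control libraries without overlap, and the ATG7/SQSTM1 KO libraries overlapped both. The log2 change was 0.06 in ATG7 KO against control, with a 95% interval of -0.01 to 0.13 (edgeR adjusted p = 0.164). It was 0.03 in ATG7/SQSTM1 KO against control (edgeR adjusted p = 0.531) and -0.03 between the knockouts (edgeR adjusted p = 0.519), where scaling by library totals alone gave 0.01.

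MXI1, an MXD family repressor, was the most abundant antagonist per kilobase and, like MYCL, was lowest in ATG7 KO. MXI1 had 95.9, 106 and 103 CPM in ATG7/SQSTM1 KO, 57.3, 51.9 and 54.7 CPM in ATG7 KO and 90.2, 95.2 and 94.0 CPM in control. The ATG7 KO libraries were the 3 lowest, and the other 6 lay within 90.2 to 106 CPM. MXI1 was 1.71-fold lower in ATG7 KO than in control (log2 change -0.77, SE 0.0435, edgeR adjusted p = 2.11e-12) and 1.86-fold higher in ATG7/SQSTM1 KO than in ATG7 KO (log2 change 0.90, edgeR adjusted p = 1.53e-13). It was also higher in ATG7/SQSTM1 KO than in control, by 0.13 (edgeR adjusted p = 0.0211), but edgeR did not call this without ATG7/SQSTM1 KO replicate 2 (adjusted p = 0.137), without replicate 3 (adjusted p = 0.0856) or without control replicate 1 (adjusted p = 0.0863). MXI1 (ENSG00000119950) lies on chromosome 10, 110207605 to 110287365, plus strand.

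Summed marker levels also differed in the ATG7 KO libraries, in which MYCL and MXI1 were lowest. Of all tested genes, 28.4% rose and 28.3% fell in ATG7 KO against control. In ATG7/SQSTM1 KO against control 19.0% rose and 19.6% fell, and between the knockouts 30.5% and 29.9%. The summed level of 9 neuroendocrine markers was 454.6 to 469.5 CPM in ATG7/SQSTM1 KO, 156 to 159 CPM in ATG7 KO and 438.5 to 447.8 CPM in control, and 9 of 9 fell in ATG7 KO against control, while 3 rose and 3 fell in ATG7/SQSTM1 KO against control. The sum of 7 fibroblast markers was 187 to 195 CPM in ATG7/SQSTM1 KO, 342 to 370.0 CPM in ATG7 KO and 107 to 120.1 CPM in control, and 4 of the 6 tested rose in ATG7 KO against control. In ATG7/SQSTM1 KO 5 of the 6 rose against control, and 2, DCN and PDGFRA, rose and 3 fell against ATG7 KO. The sum of 7 blood cell markers was 2.47 to 3.50 CPM in ATG7/SQSTM1 KO, 8.42 to 8.82 CPM in ATG7 KO and 2.44 to 3.23 CPM in control, with 3 of 3 tested higher in ATG7 KO than in control and LYZ, CD3E and MS4A1 at 0 in every group. The part of these markers in the MYCL and MXI1 results was not tested.

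Of the other MXD genes, MXD3 had the widest change of any tested member in ATG7/SQSTM1 KO against control. MXD3, an MXD repressor expressed in cycling cells, had 11.1, 11.1 and 9.72 CPM in ATG7/SQSTM1 KO, 14.7, 14.9 and 15.6 CPM in ATG7 KO and 20.3, 15.7 and 14.6 CPM in control. The ATG7/SQSTM1 KO libraries were the 3 lowest, and control replicate 1 stood above its fellows. MXD3 was lower in ATG7/SQSTM1 KO than in control (log2 change -0.67, edgeR adjusted p = 8.6e-05) and than in ATG7 KO (-0.50, edgeR adjusted p = 0.000631). MXD3 counts are uncertain, because 18.0% of its exon bases are shared with RAB24 on the same strand and 22.5% with the abundant PRELID1 on the opposite strand, and the strand setting of the counting is not given in the sources used here. In ATG7/SQSTM1 KO against control the log2 change of RAB24 was -0.11 and that of PRELID1 -0.10. In ATG7/SQSTM1 KO against ATG7 KO the log2 change of RAB24 was 0.17 and that of PRELID1 -0.42. In ATG7 KO against control RAB24 changed by -0.29 and PRELID1 by 0.33.

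MXD4, another MXD repressor, had 71.5, 65.5 and 64.6 CPM in ATG7/SQSTM1 KO, 67.8, 72.5 and 76.4 CPM in ATG7 KO and 76.4, 76.9 and 78.2 CPM in control. The 3 control libraries were the highest, the top ATG7 KO library just under them, and the knockouts overlapped. It was lower in ATG7/SQSTM1 KO than in control (log2 change -0.20, edgeR adjusted p = 0.00117) and lay at -0.10 in ATG7/SQSTM1 KO against ATG7 KO (edgeR adjusted p = 0.0508, but adjusted p = 0.0308 with relative log expression size factors, 0.0409 with no filter, 0.00615 without ATG7/SQSTM1 KO replicate 1 and 0.00821 without ATG7 KO replicate 1). MXD1, the founding MXD repressor, had 9.36, 8.92 and 9.18 CPM in ATG7/SQSTM1 KO, 8.15, 6.31 and 8.07 CPM in ATG7 KO and 7.17, 9.06 and 9.09 CPM in control. Of the exon bases of MXD1, 3.73% are shared with SNRNP27, a gene on the same strand with 702 to 937 counts per library. The ATG7/SQSTM1 KO libraries of MXD1 lay above the ATG7 KO libraries and overlapped control. The difference between the knockouts was 0.29 (edgeR adjusted p = 0.0322), which DESeq2 did not call (adjusted p = 0.0698) and which edgeR did not call without any 1 ATG7/SQSTM1 KO library (adjusted p of 0.0575 to 0.0901) or without ATG7 KO replicate 2, where it was 0.16 (adjusted p = 0.221).

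MNT and MGA are the large MAX partners outside the MXD family. MNT, a broadly expressed repressor, had 36.6, 34.4 and 35.6 CPM in ATG7/SQSTM1 KO, 30.6, 28.98 and 29.9 CPM in ATG7 KO and 30.5, 30.2 and 29.3 CPM in control. The 3 ATG7/SQSTM1 KO libraries were the highest, and the other genotypes overlapped. MNT was higher in ATG7/SQSTM1 KO than in control (log2 change 0.25, edgeR adjusted p = 0.000214) and than in ATG7 KO (0.25, edgeR adjusted p = 6.82e-05). MGA had 82.2, 81.9 and 79.6 CPM in ATG7/SQSTM1 KO, 73.5, 75.6 and 75.3 CPM in ATG7 KO and 73.5, 83.6 and 76.8 CPM in control. Control replicate 2 was the highest of all 9 libraries, and control overlapped both knockouts. MGA was 0.12 higher in ATG7/SQSTM1 KO than in ATG7 KO (edgeR adjusted p = 0.0164), a call lost without ATG7/SQSTM1 KO replicate 1 (adjusted p = 0.0673), without replicate 2 (adjusted p = 0.0661) or without ATG7 KO replicate 1 (adjusted p = 0.0699). Against control it lay at 0.06 (edgeR adjusted p = 0.275, and adjusted p = 0.0303 without control replicate 2).

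**Figure D3:**
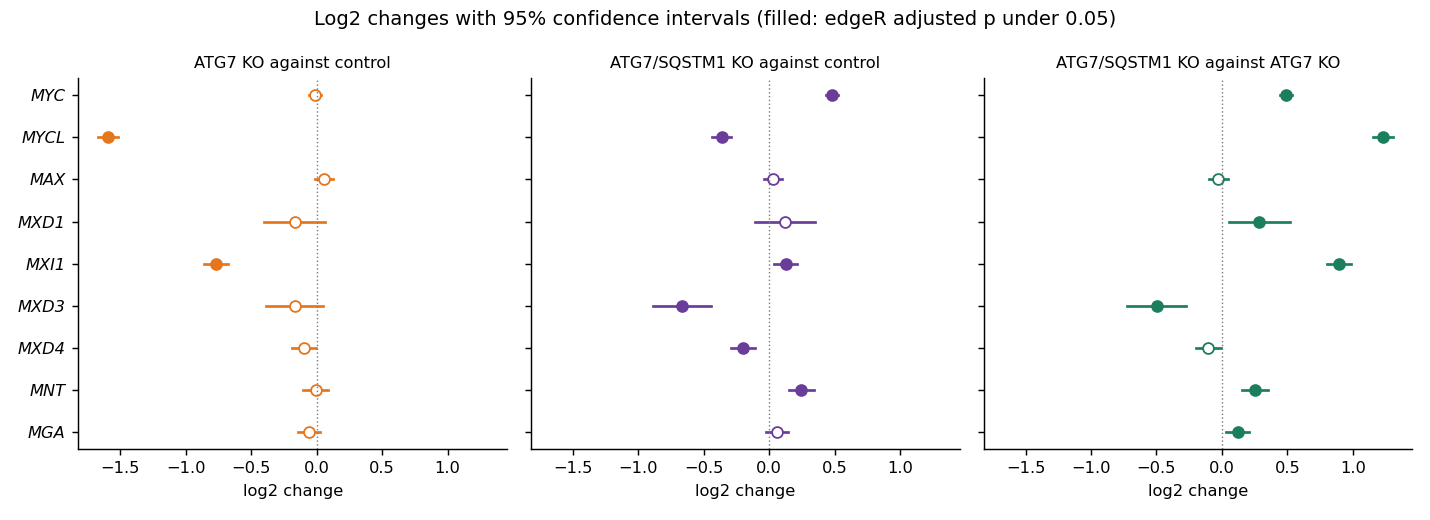
Log2 change of the 9 tested members in each comparison with 95% intervals, filled where the edgeR adjusted p was under 0.05. MYCL and MXI1 carry the widest changes, both lower in ATG7 KO than in control and higher in ATG7/SQSTM1 KO than in ATG7 KO.

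In counts, 2 of the 9 tested members changed in ATG7 KO against control, both lower, where edgeR called 56.7% of all tested genes (28.4% higher and 28.3% lower). Scaled by library totals alone the count was 5, with MYC, MXD4 and MGA also lower. In ATG7/SQSTM1 KO against control 3 members rose (19.0% of all genes did) and 3 fell (19.6%), out of 38.6% called in all. Between the knockouts 6 rose and 1 fell, against 30.5% and 29.9% of all genes and 60.5% called. The median change of the tested members was -0.10 in ATG7 KO against control (-0.02 over all tested genes), 0.06 in ATG7/SQSTM1 KO against control (-0.01 over all) and 0.25 between the knockouts (0.02 over all). The comparisons share libraries in pairs, so their values are not independent of each other.

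Summed per kilobase, the MXD family and MNT stood at 39.2 ± 0.578 in ATG7/SQSTM1 KO, 29.6 ± 0.846 in ATG7 KO and 39.2 ± 0.265 in control (SD, n = 3 each). MXI1 held 56.3% ± 2.3 of that sum in ATG7/SQSTM1 KO, 40.0% ± 1.6 in ATG7 KO and 51.6% ± 1.16 in control. The ratio of the MYC family to these antagonists was 14.7 ± 0.36 in ATG7/SQSTM1 KO, 13.5 ± 0.462 in ATG7 KO and 11.1 ± 0.121 in control. These are transcript ratios, not protein levels, and without the uncertain MXD3 they were 15.5 ± 0.326 in ATG7/SQSTM1 KO, 15.0 ± 0.533 in ATG7 KO and 12.1 ± 0.333 in control.

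The coding genes beside MYCL and MXI1, chosen after the values were seen, were read as neighbours within their loci. On the same strand as MYCL, TRIT1, a tRNA-modifying enzyme gene centred 38.0 kb away, changed by -0.87 in ATG7 KO and by -0.32 in ATG7/SQSTM1 KO against control, and by 0.55 between the knockouts (edgeR adjusted p = 2.9e-16, adjusted p = 1.15e-08 and adjusted p = 5.97e-13). BMP8B and OXCT2, farther out on that side, moved in the same directions as TRIT1 in all 3 comparisons. On the other side MFSD2A, a lysophosphatidylcholine transporter gene, rose by 0.31 in ATG7 KO and fell by 0.78 in ATG7/SQSTM1 KO against control. Beyond MFSD2A, CAP1 changed by 0.03 in ATG7 KO and by -0.12 in ATG7/SQSTM1 KO against control, and by -0.14 between the knockouts. PPT1, on the MYCL strand, changed by -0.14, -0.16 and -0.02 in the same order. All 6 neighbours of MYCL were called lower in ATG7/SQSTM1 KO against control, where 19.6% of all tested genes fell. The antisense gene MYCL-AS1 was lower in ATG7 KO than in control (log2 change -1.10, edgeR adjusted p = 0.00521) at 0.629 ± 0.284 CPM in ATG7 KO and 1.35 ± 0.238 CPM in control, and its reads may not be separable from those of MYCL. Around MXI1, the 5 tested neighbours centred 50.4 to 353 kb away had log2 changes between -0.17 and 0.57 in ATG7 KO against control. The sixth, SORCS1, which lies much farther off, had a more negative log2 change than MXI1 there (-2.87, SE 0.6585, edgeR adjusted p = 0.000828). The SE of MXI1 in that comparison was 0.0435. Near MYC, the noncoding genes PVT1 and CASC11 were lower in ATG7 KO than in control (log2 change -0.24, edgeR adjusted p = 0.0175 for PVT1, and -0.42, edgeR adjusted p = 0.022 for CASC11). DESeq2 called neither (adjusted p = 0.0759 for PVT1 and adjusted p = 0.0725 for CASC11). Nor did edgeR without ATG7 KO replicate 3 (adjusted p = 0.0593 for PVT1 and adjusted p = 0.0799 for CASC11) or without control replicate 1 (adjusted p = 0.0788 for PVT1 and adjusted p = 0.0917 for CASC11). CASC11 also lost its edgeR call with no filter (adjusted p = 0.0616) and without control replicate 2 (adjusted p = 0.0572). In ATG7/SQSTM1 KO against control neither passed the threshold (edgeR adjusted p = 0.882 for PVT1 and adjusted p = 0.193 for CASC11). Both were higher in ATG7/SQSTM1 KO than in ATG7 KO (log2 change 0.26, edgeR adjusted p = 0.00988 for PVT1, and 0.68, edgeR adjusted p = 0.000542 for CASC11). CASC11 kept that call under every alternative. PVT1 lost it only without ATG7/SQSTM1 KO replicate 2 (edgeR adjusted p = 0.0556).

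**Figure D4:**
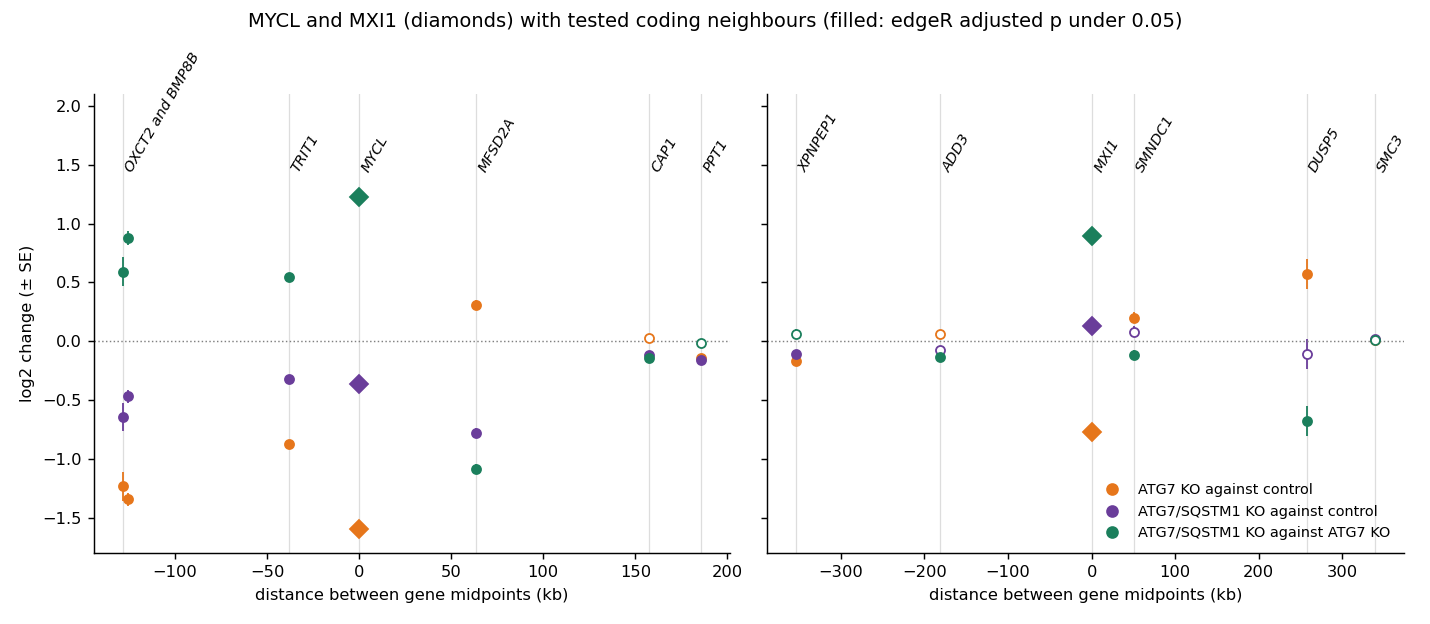
Log2 change ± SE of MYCL and MXI1 (diamonds at 0) and of the tested coding genes nearest to them, by distance between gene midpoints in kb and by comparison, filled where the edgeR adjusted p was under 0.05. TRIT1, BMP8B and OXCT2 lie on the same side of 0 as MYCL in each comparison, and the 5 neighbours of MXI1 drawn lie above it in ATG7 KO against control. SORCS1, at -2.87 in that comparison, lies beyond the range drawn.

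By the root mean square difference of centred log2 CPM over the 9 libraries, among 11244 coding genes of at least 5 CPM, the profiles nearest to MYC were those of TBL1X (0.0274), FHL1, PRKCI, POGZ and NEK6. TBL1X, a corepressor subunit gene, stood at 83.7 ± 1.03 CPM in ATG7/SQSTM1 KO, 58.6 ± 0.944 CPM in ATG7 KO and 59.3 ± 0.964 CPM in control. The profiles nearest to MYCL were those of ZNF521 (0.0423), CALN1, INSM1, TP73 and PGBD5. INSM1, a neuroendocrine transcription factor, stood at 73.2 ± 4.73 CPM in ATG7/SQSTM1 KO, 30.6 ± 0.747 CPM in ATG7 KO and 89.2 ± 1.57 CPM in control.

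Lists of genes around the network are given below as counts, to be read beside the shares of all tested genes: 28.4% rose and 28.3% fell in ATG7 KO against control, 19.0% and 19.6% in ATG7/SQSTM1 KO against control, and 30.5% and 29.9% between the knockouts. No list was tested against other genes. Of 34 tested genes that MYC is known to induce, 20 rose and 10 fell in ATG7 KO against control (median 0.12), 7 rose and 19 fell in ATG7/SQSTM1 KO against control (median -0.09), and 8 rose and 21 fell between the knockouts (median -0.26). With no filter on low counts, 6 in place of 10 fell in ATG7 KO against control. SLC7A5, an amino acid transporter subunit, stood at 340.5 ± 10.9 CPM in ATG7/SQSTM1 KO, 495 ± 4.59 CPM in ATG7 KO and 462 ± 13.9 CPM in control, and was lower in ATG7/SQSTM1 KO than in control (log2 change -0.44, edgeR adjusted p = 6.76e-11). The nucleolar chaperone NPM1 changed by -0.31 in the same comparison (edgeR adjusted p = 2.01e-10). CCND2, cyclin D2, went the other way, at 62.4 ± 1.97 CPM in ATG7/SQSTM1 KO, 10.6 ± 0.807 CPM in ATG7 KO and 25.03 ± 1.66 CPM in control, with changes of 1.32 against control (edgeR adjusted p = 4.43e-14) and 2.56 between the knockouts (edgeR adjusted p = 1.1e-18).

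Genes that MYC is known to repress numbered 9 tested. Of these 2 rose and 5 fell in ATG7 KO against control (median -0.30), 4 rose and 2 fell in ATG7/SQSTM1 KO against control (median 0.17), and 6 rose and 1 fell between the knockouts (median 0.48). CDKN1A, which encodes the cell cycle inhibitor p21, stood at 207 ± 3.42 CPM in ATG7/SQSTM1 KO, 136 ± 7.51 CPM in ATG7 KO and 255 ± 10.9 CPM in control. It was lower than control in both (log2 change -0.30 in ATG7/SQSTM1 KO, edgeR adjusted p = 2.89e-06, and -0.91 in ATG7 KO, edgeR adjusted p = 2.59e-13). CLU, clusterin, was higher than control in both (log2 change 0.68 in ATG7/SQSTM1 KO, edgeR adjusted p = 4.9e-11, and 0.38 in ATG7 KO, edgeR adjusted p = 1.21e-07).

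The parallel branch of the network runs through MLX, which pairs with the glucose sensors MLXIP and MLXIPL and with some MXD proteins. The 5 genes listed for it are MLX, MLXIP and MLXIPL with the targets TXNIP and ARRDC4. Of these 5, 1 rose and 4 fell in ATG7 KO against control (median -0.27). In ATG7/SQSTM1 KO against control 1 rose and 2 fell, and between the knockouts 3 rose and 1 fell. The 2 that fell in ATG7/SQSTM1 KO against control became 1 without ATG7/SQSTM1 KO replicate 2 or 3 or control replicate 2, with no filter, in DESeq2 and with a replicate block. The 3 that rose between the knockouts became 1 without ATG7/SQSTM1 KO replicate 1 or ATG7 KO replicate 1. TXNIP, a target that restrains glucose uptake, stood at 434.9 ± 7.92 CPM in ATG7/SQSTM1 KO, 232 ± 5.6 CPM in ATG7 KO and 328 ± 9 CPM in control. Its log2 change was 0.41 in ATG7/SQSTM1 KO against control (edgeR adjusted p = 1.91e-10) and -0.50 in ATG7 KO against control (edgeR adjusted p = 1.52e-12). MLX itself was the 1 that rose in ATG7 KO, by 0.29 (edgeR adjusted p = 3.66e-06).

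Cofactors that MYC recruits, 16 tested, rose in 8 cases and fell in 1 in ATG7 KO against control, rose in 4 and fell in 7 in ATG7/SQSTM1 KO against control, and rose in 1 and fell in 11 between the knockouts. Across the alternatives the 1 that fell in ATG7 KO ranged from 0 to 3. The number was 0 without ATG7 KO replicate 1 or 3 or control replicate 3. It was also 0 with relative log expression size factors, with no filter, in DESeq2 and with a replicate block. RUVBL2, a helicase-like ATPase, stood at 148 ± 3.49 CPM in ATG7/SQSTM1 KO, 172 ± 4.08 CPM in ATG7 KO and 119 ± 4.74 CPM in control, and rose in both against control. TRRAP, the acetyltransferase scaffold, stood at 176 ± 7.63 CPM in ATG7/SQSTM1 KO, 249 ± 13.9 CPM in ATG7 KO and 209.6 ± 9.51 CPM in control and was lower in ATG7/SQSTM1 KO than in control (log2 change -0.25, edgeR adjusted p = 0.000592). Genes of MYC protein turnover, 16 tested, rose in 9 and fell in 4 in ATG7 KO against control, rose in 5 and fell in 1 in ATG7/SQSTM1 KO against control, and rose in 5 and fell in 8 between the knockouts. The last 5 became 3 without ATG7/SQSTM1 KO replicate 1 or 2 or ATG7 KO replicate 3. PPP2CA, the catalytic subunit of the phosphatase that promotes MYC decay, stood at 210.2 ± 4.87 CPM in ATG7/SQSTM1 KO, 304 ± 6.24 CPM in ATG7 KO and 238 ± 0.71 CPM in control, with changes of -0.18 in ATG7/SQSTM1 KO against control (edgeR adjusted p = 2e-05) and 0.36 in ATG7 KO against control (edgeR adjusted p = 2.54e-10).

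On the repressor side, 16 genes of the SIN3 and HDAC complexes that the MXD proteins recruit rose in 3 cases and fell in 3 in ATG7 KO against control, rose in 3 and fell in 4 in ATG7/SQSTM1 KO against control, and rose in 4 and fell in 5 between the knockouts. Their medians of 0.05, 0.02 and -0.02 lay near that of all genes, and the last 2 changed sign under at least 1 alternative setting. The 3 that rose in ATG7 KO became 6 with relative log expression size factors and 5 without ATG7 KO replicate 3, and the 3 that rose in ATG7/SQSTM1 KO against control became 1 without its replicate 3 or control replicate 3. RBBP7, a histone-binding subunit, stood at 445.7 ± 6.33 CPM in ATG7/SQSTM1 KO, 390.5 ± 11.6 CPM in ATG7 KO and 312 ± 5.93 CPM in control and changed by 0.51 in ATG7/SQSTM1 KO against control (edgeR adjusted p = 2.56e-12). Of 14 PRC1.6 genes, the complex of MGA, 7 rose and 2 fell in ATG7 KO against control, 2 rose and 5 fell in ATG7/SQSTM1 KO against control, and 3 rose and 9 fell between the knockouts. The 5 became 3 without ATG7/SQSTM1 KO replicate 1 or control replicate 1. The lists share genes: HDAC1 and HDAC2 are also counted in the SIN3 and HDAC list, and WDR5 among the cofactors. Of 11 germline genes that PRC1.6 is known to repress in mouse embryonic stem cells, 3 were tested. Of these, 0 rose and 1 fell in ATG7 KO against control, and 0 rose and 2 fell in ATG7/SQSTM1 KO against control. The 2 became 1 under at least 1 alternative. Between the knockouts 1 rose and 1 fell. STAG3, a meiotic cohesin gene, was the 1 that fell in ATG7 KO against control (log2 change -0.97, edgeR adjusted p = 3.03e-07). It stood at 4.82 ± 0.209 CPM in ATG7 KO and 9.42 ± 0.806 CPM in control. The other tested genes had log2 changes of 0.045 and 0.3119 there and were not called.

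**Figure D5:**
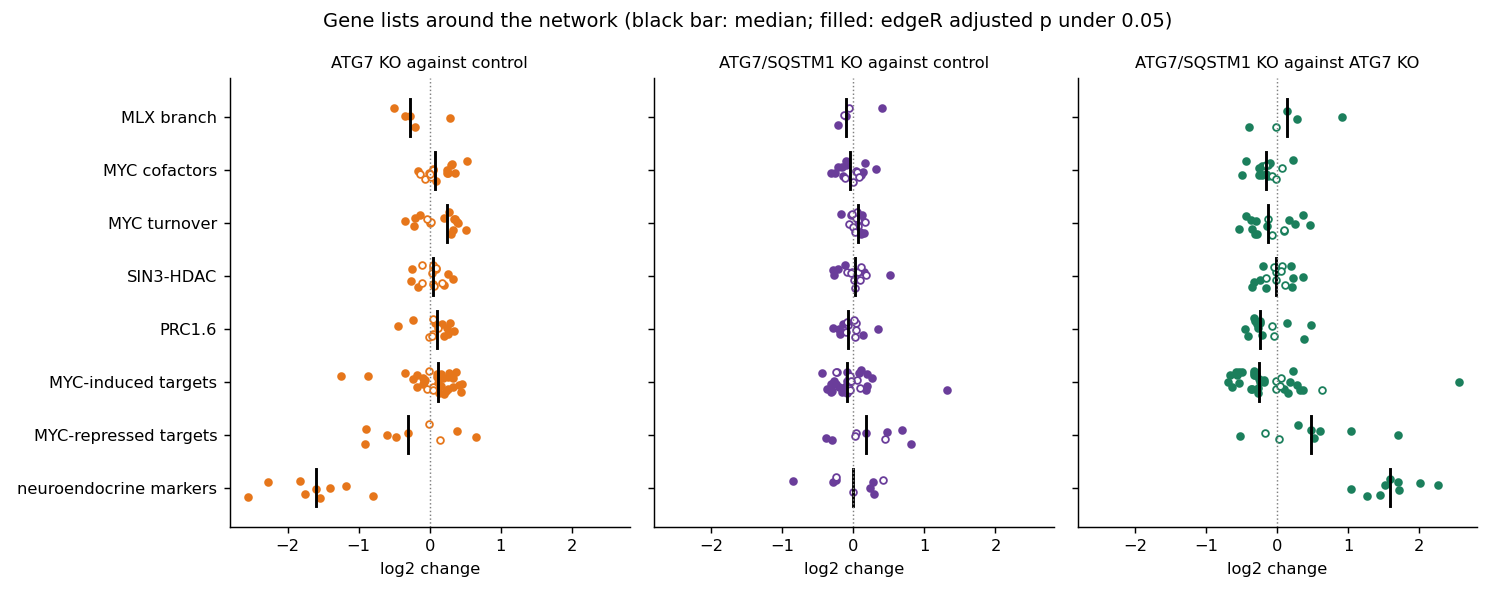
Log2 change of every tested gene of 8 lists in each comparison, with the list median marked, filled where the edgeR adjusted p was under 0.05. Genes that MYC induces spread on both sides of 0 in all 3 comparisons, with medians of 0.12, -0.09 and -0.26.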

How the data were processed

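Total RNA of DMS273 cells was depleted of rRNA and made into strand-marked libraries, per the labels' protocols, and the submitters' processing notes name HISAT2 and hg38. The sources used here do not give how reads were assigned to genes, with which annotation and strand. The table deposited by the authors holds raw counts, a column per library and a row per gene. Empty cells were taken as 0, and a numbering row and an unlabelled column were dropped. Gene coordinates and exon lengths are from GENCODE release 29 on GRCh38.

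The test was edgeR 4.0.16 in R 4.3.3: filterByExpr by group, TMM scaling, a robust quasi-likelihood fit of all 9 libraries by group, and Benjamini-Hochberg adjustment over 18847 genes. Its common biological coefficient of variation came to 6.39%. Alternatives were other size factors, other filters, DESeq2 1.42.0, fits of 6 libraries, a replicate block and leaving out each library. The members and lists were chosen with earlier results of these data known. Named were the members, up to 4 genes per list with the smallest p in a comparison, and the 5 profiles nearest to MYC and to MYCL. Some genes the rule names are left out of the text.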

Additional observations from a re-analysis of the deposited data

How the results depend on the processing

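Over the 13 alternatives, the members' changes kept direction and side of the threshold in 317 cases, changed sign in 13, gained a call in 10 and lost one in 11. The changes of MYC in both comparisons with ATG7/SQSTM1 KO, of MYCL in all 3 comparisons and of MXI1 in both comparisons with ATG7 KO passed the threshold under every alternative run. So did those of MXD3 and MNT in both comparisons with ATG7/SQSTM1 KO, and of MXD4 in ATG7/SQSTM1 KO against control. Members called in ATG7 KO against control numbered 5 when libraries were scaled by their totals alone, in place of 2. Without length scaling, MYC made up 74.13% of the members' summed CPM in ATG7/SQSTM1 KO, 73.52% in ATG7 KO and 65.55% in control. Changes of members that reversed were near 0. In ATG7 KO against control, MYC stood at 0.0011 with relative log expression size factors and with DESeq2 and at 0.0014 with no filter. It stood between -0.0174 and 0.0031 when libraries were left out. MNT stood at 0.0051, 0.0051 and 0.0055 under the same settings and between -0.0246 and 0.0189 when libraries were left out. Between the knockouts MAX stood at 0.0111 with library totals alone. Leaving out libraries also spread the germline gene TDRKH in ATG7 KO against control (-0.0013 to 0.1128). In ATG7/SQSTM1 KO against control it spread PVT1 (-0.0202 to 0.0648) and the germline gene MEIOC (-0.4051 to 0.257). MEIOC had only 6 to 20 counts per library. The cause was not tested.

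Deviations of libraries with the same replicate number correlated between -0.261 and 0.047, so the numbers were not taken to pair the samples. With the replicate block, 10564 genes and 2 members were called in ATG7 KO against control, 7137 genes and 6 members in the double knockout against control, and 11262 genes and 7 members between the knockouts. At this depth MYCN could not be compared, and the 1 call of MXD1, a gene at 6.31 to 9.36 CPM, was lost when any of 4 libraries was left out.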
